A study of Mus musculus with 2 samples.

Results

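The MEIS, PBX and PKNOX genes encode TALE homeodomain proteins, transcription factors whose homeodomain carries an extra 3-residue loop. The 8 genes Meis1, Meis2, Meis3, Pbx2, Pbx3, Pbx4, Pknox1 and Pknox2 were taken by symbol from the 46095 genes of the deposited table, and all 8 were found. RNA was sequenced in 2 libraries from mice with acute myeloid leukaemia (AML). The labels describe the cells as leukemia-initiating cells of C57BL/6 animals aged 8 weeks, sorted from bone marrow as Mac1-positive and C-kit-positive. One library has the genotype P2x7-KO (title P2XT-KD) and one has the genotype wild type (title P2XT-Scr). P2x7 is an ATP-gated cation channel. No source used here states how the leukaemia was made or whether animals were pooled. With 1 library per genotype no test between genotypes was possible, no p-value is given, and the intervals below are 95% intervals that cover counting error only.

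MEIS and PKNOX proteins pair with PBX proteins, and both bind DNA together with HOX proteins such as HOXA9. In myeloid progenitors MEIS1 and HOXA9 are known as joint drivers of AML, and PBX3 is known as the PBX partner most used in HOXA-driven AML. PKNOX1, also called PREP1, competes with MEIS1 for PBX, and PBX partners hold MEIS and PKNOX proteins in the nucleus. MEIS2 and MEIS3 are relatives of MEIS1 best known from development, and PKNOX2 is the relative of PKNOX1. PBX2 is a broadly expressed PBX protein, and PBX4 is best known from the testis.

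The library labelled P2x7-KO held 12435916 counts and the library labelled wild type 12456212. P2rx7, the gene of the channel, had 543 counts in the library labelled P2x7-KO and 229 in the library labelled wild type, a 2.27-fold ratio (1.94 to 2.66). P2rx7 was thus higher, against the label, in the library labelled as its knockout. The libraries are still called by their labels throughout, the KO-labelled library and the WT-labelled library, and every direction, ratio and rank below rests on those labels and would turn round if they were exchanged. Of the sort genes, Kit was at 67.6 counts scaled to 1000000 per library (CPM) in the KO-labelled library and 45.95 in the WT-labelled library, and Itgam at 542.6 and 186.9 CPM. Of 9 monocyte and macrophage markers counted, 7 were at least 2-fold higher in the KO-labelled library and 0 lower, and their summed level was 4988 CPM there and 2155 CPM in the WT-labelled library. Of 4 mast cell and basophil markers counted, 2 were lower and 0 higher, with a summed level of 40.1 CPM in the KO-labelled library and 378.6 CPM in the WT-labelled library, and Fcer1a was at 0 in both. The 6 markers of granulocyte-monocyte progenitors were all within 2-fold, at a summed 4540 CPM in the KO-labelled library and 4921 CPM in the WT-labelled library. Of all 13363 genes with at least 20 counts in all, 10.8% were at least 2-fold higher and 8.95% lower. Further marker lists differed. Stem cell and early progenitor markers summed to 324.6 CPM in the KO-labelled library and 460.2 CPM in the WT-labelled library. Neutrophil markers summed to 2947 and 3430 CPM in the same libraries, but the list was split. Of 8 neutrophil markers counted, 1 was at least 2-fold higher in the KO-labelled library and 2 were lower. Their median log2 ratio was -0.42, and 0.16 once adjusted for transcript length and GC content, as given below. Megakaryocyte, erythroid, B lymphoid, T and NK, and endothelial and stromal lists held 1 or 2 counted genes each, all past 2-fold. In the KO-labelled library 2 erythroid genes were higher and 0 lower, and 1 B lymphoid gene was higher and 0 lower. Of the T and NK genes 0 were higher and 2 lower. The megakaryocyte list and the endothelial and stromal list each had 1 higher and 1 lower. The part of these cell type signals in the values of the TALE genes was not tested. In such bulk samples fewer cells of a type and less RNA per cell cannot be told apart.

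The stretch of coding DNA for the third homeodomain helix, which contacts the bases of the binding site, is shown for the 4 members that carry the results, because it separates the MEIS and PKNOX class from the PBX class. Each is 42 bases long, read 5′ to 3′ from the representative GENCODE M21 transcript, and the 18 capitals encode the conserved tryptophan, phenylalanine, any residue, asparagine, any residue, arginine.
Meis1: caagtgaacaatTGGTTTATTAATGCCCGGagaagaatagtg
Pknox1: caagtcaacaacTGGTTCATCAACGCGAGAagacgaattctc
Pbx3: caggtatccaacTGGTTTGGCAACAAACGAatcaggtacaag
Pbx4: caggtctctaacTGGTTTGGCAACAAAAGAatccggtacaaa
Meis1 and Pknox1 had the same base at 30 of 42 positions and Pbx3 and Pbx4 at 37 of 42, while Meis1 and Pbx3 had it at 21. Of all 50-base windows in the representative transcript, 0.94% of those of Meis1 and 2.52% of those of Pknox1 also occurred in a transcript of another gene, and 0% of those of Pbx3, Pbx4 and Pbx2. For Pknox1 the other gene is the antisense transcript AC166172.4, so its reads cannot be told apart from those of Pknox1 if strand was not used in counting.

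In GENCODE M21 (mm10) the minus strand carries Meis1 (chr11:18879817-19018985) and Pbx3 (chr2:34171457-34373142). The plus strand carries Pknox1 (chr17:31564734-31607693), Pbx2 (chr17:34591266-34597400) and Pbx4 (chr8:69832491-69872292). Exons of Meis1 overlap those of the antisense gene Gm16140 by 896 bases and those of Gm37818, on the same strand, by 1029 bases. Reads from Gm37818 could not be told apart from those of Meis1 by strand.

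Promoter windows were available for Meis1, Meis2, Meis3, Pbx2 and Pbx4 (RefSeq, GRCm38.p6, 250 bases before to 50 bases after the start). Those of Meis1 (chr11:19018920-19019219, minus strand) and Pbx4 (chr8:69832374-69832673, plus strand) are printed 5′ to 3′, because these are the promoters at hand of a member that was higher and of the member that was lower. Capitals mark matches to CCAAT, the motif of NF-Y, and to ACTTCCGG, a motif of ETS factors, on either strand.
Meis1: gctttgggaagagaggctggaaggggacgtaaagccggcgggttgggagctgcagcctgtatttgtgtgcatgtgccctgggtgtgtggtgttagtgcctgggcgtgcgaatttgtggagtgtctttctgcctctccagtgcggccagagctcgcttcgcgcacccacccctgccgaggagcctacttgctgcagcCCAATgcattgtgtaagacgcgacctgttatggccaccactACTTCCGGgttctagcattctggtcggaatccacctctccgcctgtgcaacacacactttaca
Pbx4: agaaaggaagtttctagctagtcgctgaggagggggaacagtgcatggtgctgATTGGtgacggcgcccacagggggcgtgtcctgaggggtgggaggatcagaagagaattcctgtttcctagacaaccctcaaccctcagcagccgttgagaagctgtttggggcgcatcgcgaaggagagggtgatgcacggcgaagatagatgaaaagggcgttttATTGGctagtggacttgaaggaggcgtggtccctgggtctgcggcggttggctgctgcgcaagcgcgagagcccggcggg
The Meis1 window held 1 CCAAT match, starting at base -54, and 1 ACTTCCGG match, starting at base -13, and the Pbx4 window held 2 CCAAT matches. Of 32851 promoter windows 37.4% held CCAAT and 3.89% held ACTTCCGG, and both motifs were added after the sequences had been seen. The core TGACAG, bound by MEIS, PKNOX and TGIF proteins, was in none of the 5 windows and in 19.2% of all windows. The PBX and HOX motif TGATTNAT, in 3.22% of all windows, was not in the 5 windows either. These are letter matches in short windows and show no binding.

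Most reads of the 8 genes came from Pbx3, Meis1 and Pknox1, which together held 97.35% of the 8 genes' counts in the KO-labelled library and 93.9% in the WT-labelled library. All 3 were higher in the KO-labelled library, by 1.35-fold to 1.48-fold, while Pbx4 was 1.69-fold lower. For these 4 of the 5 members with at least 20 counts over both libraries the interval of the ratio excluded 1, as it did for 70.2% of all 13363 genes so counted, a share near the background. Adjusted for transcript length and GC content, as given below, the interval of Pbx4 included equality, and Meis1 turned lower if the longest transcripts were used. Over the 8 genes, the sum was 3468 counts (272.3 CPM) in the KO-labelled library and 2441 counts (200.7 CPM) in the WT-labelled library, a 1.36-fold ratio (1.29 to 1.43).

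Of the partners of PBX, Meis1 had 1010 counts in the KO-labelled library, 79.3 CPM (74.5 to 84.4), and 715 counts in the WT-labelled library, 58.8 CPM (54.55 to 63.25). CPM were taken after TMM normalization. The Meis1 intervals do not overlap, and the ratio was 1.35-fold (1.22 to 1.49). Pknox1 had 810 counts in the KO-labelled library, 63.6 CPM (59.3 to 68.1), and 575 counts in the WT-labelled library, 47.3 CPM (43.5 to 51.3). Its ratio, 1.35-fold (1.21 to 1.5), was the same as that of Meis1 to 2 decimals.

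Pbx3 was the member with the highest CPM in both libraries. It had 1556 counts in the KO-labelled library, 122.2 CPM (116.2 to 128.4), and 1002 counts in the WT-labelled library, 82.4 CPM (77.35 to 87.6). The Pbx3 ratio was 1.48-fold (1.37 to 1.61). Pbx4 went the other way, with 82 counts in the KO-labelled library, 6.44 CPM (5.12 to 7.99), and 132 counts in the WT-labelled library, 10.85 CPM (9.08 to 12.9). The Pbx4 level was thus 1.69-fold lower (1.27 to 2.25) in the KO-labelled library, again with intervals that do not overlap.

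**Figure D1:**
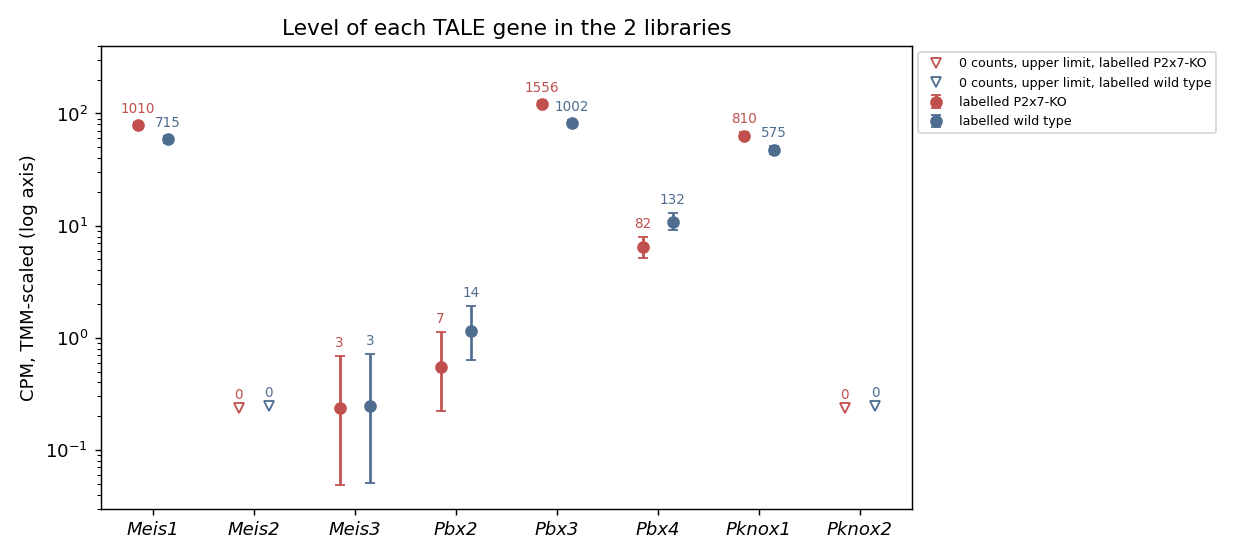
Level of each gene in CPM on a log axis, with the KO-labelled library left of the WT-labelled library and raw counts printed above. Bars are exact Poisson 95% intervals and open triangles are the limit that 0 counts allow (3 counts); Meis1, Pbx3 and Pknox1 stand at 47.3 to 122.2 CPM and are higher in the KO-labelled library, and Pbx4, at 6.44 and 10.85 CPM, is lower there.

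The remaining members were at or near the limit of detection. Meis2 and Pknox2 had 0 counts in both libraries, which allows up to 0.236 CPM in the KO-labelled library and 0.247 CPM in the WT-labelled library, taking 3 counts as the limit. Meis3 had 3 counts in each library, at that limit, and no fold is given for these 3 genes. Pbx2 had 7 counts in the KO-labelled library and 14 in the WT-labelled library, a log2 ratio of -1.07 whose interval, -2.62 to 0.34, includes equality.

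The low counts of Pbx2 lie in a stretch of chromosome 17 where few genes had counts. Of 59 other mRNA genes that start within 500 kb of Pbx2, 23.7% had at least 20 counts over both libraries, against 51.2% of all 21291 mRNA genes with a position and 62.5% of 16 genes around Pknox1 on the same chromosome. Rnf5, a ubiquitin ligase gene that starts 10 kb from Pbx2, was listed at 0 in both libraries, as was Gpsm3, which overlaps Pbx2 by 227 exon bases. Csnk2b, which encodes a subunit of casein kinase 2, and Bag6, a chaperone gene, start 525 and 544 kb away and were also at 0 in both. Brd2, a chromatin reader gene, had 24 counts in the KO-labelled library and 33 in the WT-labelled library. Atf6b, which starts 56 kb from Pbx2, had 13 counts in the KO-labelled library and 11 in the WT-labelled library. The Pbx2 counts are given without a reading of the level of its RNA. The cause of the low counts in this stretch was not tested, and the neighbours named were chosen after their values were seen.

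Levels of different genes were compared per kilobase of the representative transcript. In the KO-labelled library the order was Pbx3 at 47.2 CPM per kilobase (44.9 to 49.6), Meis1 at 23.7 (22.3 to 25.2), Pknox1 at 14.96 (13.95 to 16.03) and Pbx4 at 4.13 (3.28 to 5.12). In the WT-labelled library it was the same, with Pbx3 at 31.8 CPM per kilobase (29.9 to 33.9), Meis1 at 17.6 (16.3 to 18.9), Pknox1 at 11.1 (10.2 to 12.1) and Pbx4 at 6.96 (5.82 to 8.25). No neighbours in these orders overlapped within a library. The place of Meis1 rests on the transcript chosen, which is 3346 bases long. Per kilobase of all its annotated exons, 10532 bases, Meis1 stood at 7.53 CPM, below Pknox1 at 9.18 CPM, in the KO-labelled library, and at 5.58 CPM, below Pknox1 at 6.82 CPM, in the WT-labelled library. By CPM per kilobase Pbx3 stood above 88.1% of 13645 mRNA genes with counts in the KO-labelled library and above 80.7% in the WT-labelled library. For Meis1 these shares were 75.5% and 69.1% in the same libraries, and for Pbx4 40% and 50.7%.

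By raw counts Pbx3, Meis1 and Pknox1 stood in nearly the same proportions in both libraries, and Pbx4 held a smaller share in the KO-labelled library. Ratios between genes of 1 library do not depend on the scaling, and 10 pairs of the 5 genes with at least 20 counts were compared. The Meis1 to Pknox1 count ratio was 1.25 in the KO-labelled library and 1.24 in the WT-labelled library, a change of 1.0-fold (0.866 to 1.16). The Meis1 to Pbx3 ratio was 0.649 in the KO-labelled library and 0.714 in the WT-labelled library, a change of 0.910 (0.802 to 1.03). The Pbx3 to Pknox1 ratio changed by 1.10-fold (0.963 to 1.26). These 3 unadjusted intervals include no change. Adjustment for length and GC content of the representative transcripts, given below, moved the pairs with Pbx3 away from no change.

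Among the PBX genes the proportions differed more. The Pbx3 to Pbx4 count ratio was 19.0 in the KO-labelled library and 7.59 in the WT-labelled library, a change of 2.50-fold (1.86 to 3.37). The share of Pbx4 in the counts of the 8 genes was 2.36% (1.88 to 2.93, Clopper-Pearson) in the KO-labelled library and 5.41% (4.54 to 6.38) in the WT-labelled library. The share of Pbx3 was 44.9% (43.2 to 46.5) in the KO-labelled library and 41.0% (39.1 to 43.0) in the WT-labelled library, with intervals that just do not overlap. Meis1, at 29.1% and 29.3% in the same libraries, and Pknox1, at 23.4% and 23.6%, held equal shares within their intervals.

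**Figure D2:**
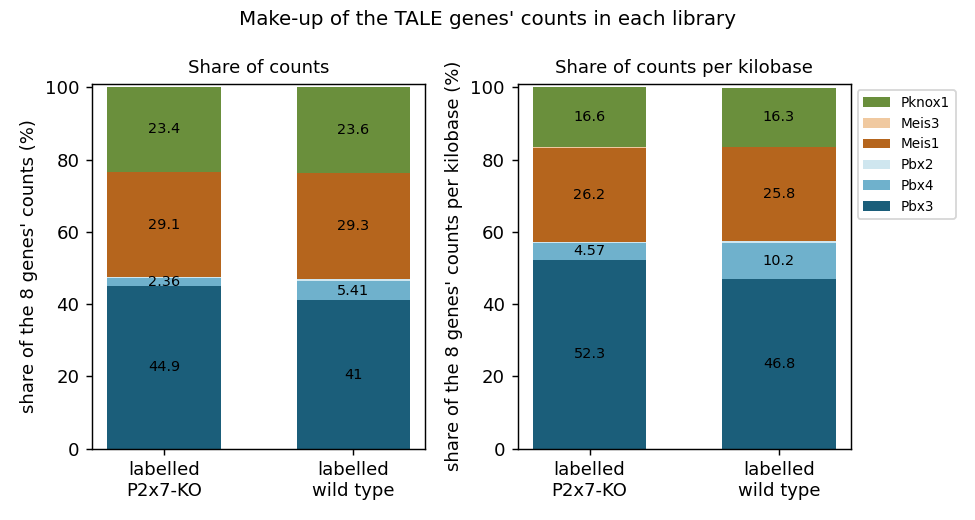
Stacked bars give the share (%) of the summed counts (left) and of the counts per kilobase (right) of the 8 genes, with the KO-labelled library left of the WT-labelled library. The Pbx4 segment is 2.36% against 5.41% of counts and 4.57% against 10.2% per kilobase, while those of Meis1 and Pknox1 are of like size in both.

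Set against all genes, these differences were ordinary in size. Of the 13363 genes counted, 10.8% were higher by 2-fold or more and 8.95% lower, with an interval that excluded a ratio of 1, 19.8% in all, and 0 of the 5 members were. By the interval alone 35.6% of genes were higher, as were Meis1, Pbx3 and Pknox1, and 34.7% were lower, as was Pbx4. Among the 6342 genes of 1560 to 4252 bases, the span of the 5 members, the interval excluded 1 for 68.7% and 13.7% were 2-fold apart. By these rules the members did not stand out, but 5 genes are too few to tell them from the background. By log2 ratio, Pbx3 stood above 76.4% of all genes counted, Meis1 above 71.1%, Pknox1 above 70.8% and Pbx4 above 15.2%.

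The ratio between the libraries moved with transcript length over all genes, and the members follow that trend in part. The median log2 ratio was -0.53 in the shortest quintile of genes, up to 1374 bases, and 0.52 in the longest quintile, over 4641 bases. At the length and GC content of each member the trend over all genes lay at 0.27 for Meis1, 0.25 for Pknox1, 0.04 for Pbx3 and -0.41 for Pbx4. Once it was subtracted, the log2 ratio of Pbx3 was 0.53 (0.41 to 0.64), against 0.57 before. That of Meis1 was 0.16 (0.02 to 0.30), against 0.43 before, and that of Pknox1 0.18 (0.03 to 0.34), against 0.43. For Pbx4 it was -0.35 (-0.76 to 0.06), against -0.75, and the interval then included equality. After this adjustment 63.3% of 12333 genes had an interval that excluded equality, and 3 of the 5 members did, while 13.1% of genes and 0 members were 2-fold apart. Meis1 again depends on the transcripts used, its longest being of 7553 bases. With the trend refitted on the longest transcript of every gene, Meis1 was at -0.26 (-0.40 to -0.12), the other direction.

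**Figure D3:**
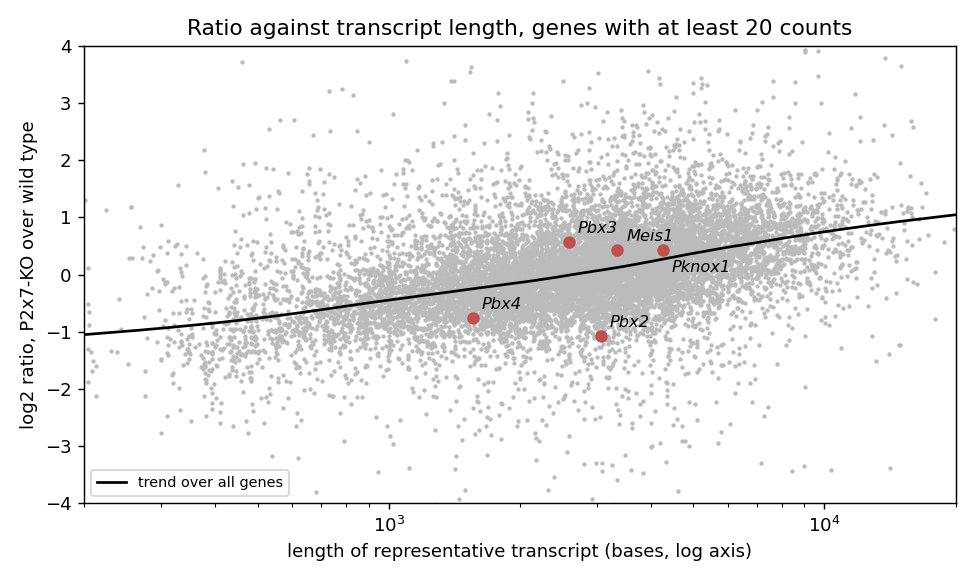
Each grey point is 1 of 12333 genes, by transcript length (bases, log axis) and log2 ratio of the KO-labelled library over the WT-labelled library, with the trend over all genes as a line; genes beyond the axes are not drawn. Against this length trend Pbx3 lies 0.58, Meis1 0.31 and Pknox1 0.16 above the line, and Pbx4 and Pbx2 lie below it.

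Between members, the adjusted Pbx3 to Pbx4 contrast still excluded no change. The Pbx3 to Pbx4 difference was 0.87 on the log2 scale (0.45 to 1.30) after it. The adjusted Meis1 to Pbx3 difference was -0.36 (-0.55 to -0.18) and the adjusted Pbx3 to Pknox1 difference 0.34 (0.15 to 0.54). By the representative transcripts Pbx3 thus stood above both genes, where the unadjusted intervals had included no change. With the longest transcripts the adjusted log2 ratios were 0.33 (0.22 to 0.45) for Pbx3 and 0.275 (0.12 to 0.43) for Pknox1. For these values the trend was refitted on the longest transcript of every gene, and that of Pknox1 is also its representative one. The intervals overlap, so the place of Pbx3 above Pknox1 rests on the transcripts used for the trend. The adjusted Meis1 to Pknox1 difference was -0.02 (-0.23 to 0.19) by the representative transcripts. With the longest transcripts Meis1 was at -0.26 (-0.40 to -0.12), below Pknox1.

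**Figure D4:**
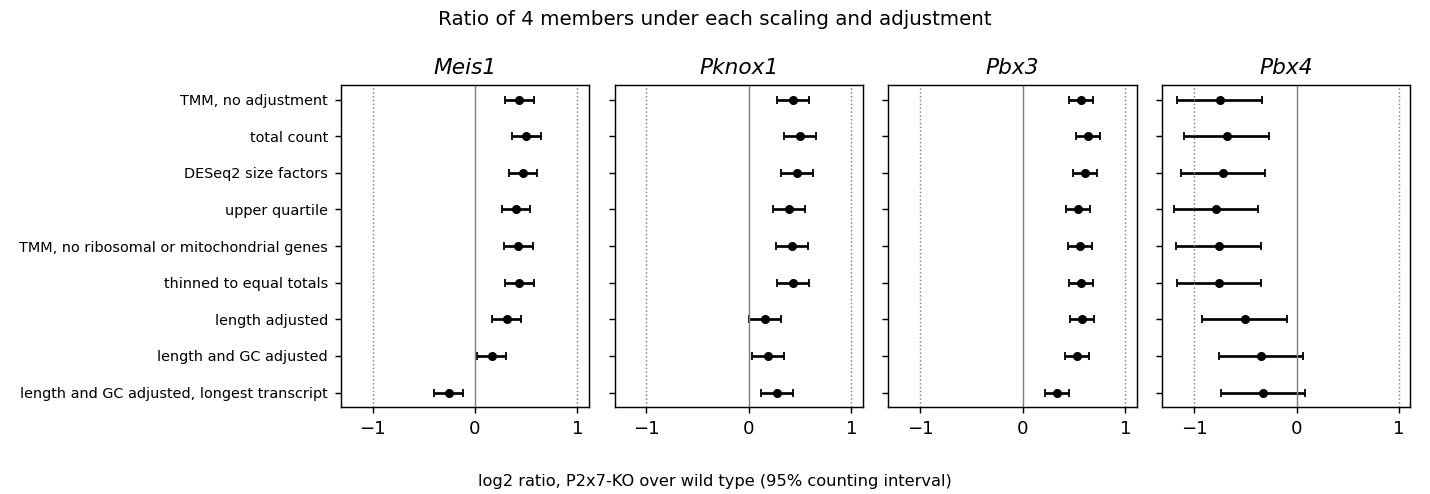
Log2 ratio of the KO-labelled library over the WT-labelled library with its 95% counting interval for 4 genes, 1 line for each scaling or adjustment; dotted lines mark 2-fold. Pbx3 stays above 0 in every line, Pbx4 reaches 0 with its interval in both length and GC adjustments, and Meis1 is at -0.26 when the longest transcripts are used.

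The other genes of the TALE superclass held few counts apart from Tgif1. TGIF1 is a repressor that binds the same TGACAG core as MEIS1 and is known to compete with it. Tgif1 had 292 counts in the KO-labelled library, 22.9 CPM, and 572 in the WT-labelled library, 47.0 CPM, a log2 ratio of -1.04. Its 2-fold call was lost under total count and DESeq2 scaling, and also once length and GC content of the representative transcript were adjusted for, at a log2 ratio of -0.90, while adjustment by the longest transcript left it. Irx5, an Iroquois homeobox gene, had 4 counts in the KO-labelled library and 18 in the WT-labelled library. These were the 2 of 9 listed genes with at least 20 counts, and both were at least 2-fold lower. Irx1, Irx4, Irx6 and Mkx were at 0 in both libraries. The Meis1 to Tgif1 count ratio was 3.46 in the KO-labelled library and 1.25 in the WT-labelled library, a change of 2.77-fold (2.33 to 3.29). After adjustment by the representative transcripts this change was 1.07 on the log2 scale (0.82 to 1.32). It was not computed with the longest transcripts, which brought the adjusted log2 ratio of Meis1 to -0.26. The Pbx3 to Tgif1 ratio changed by 3.04-fold (2.58 to 3.59) and the Pknox1 to Tgif1 ratio by 2.76-fold (2.30 to 3.31).

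HOX genes, the DNA-binding partners of MEIS and PBX, were counted for 11 of 39 listed, with 1 at least 2-fold higher, 1 lower and 9 neither. Their median log2 ratio was -0.08, against 0.005 over all genes. After adjustment for length and GC content, which leaves out Hoxa11, it was 0.01, against -0.01 over all genes. Hoxa9 stood at 222.6 CPM in the KO-labelled library and 215.5 CPM in the WT-labelled library. Hoxa7 stood at 69.7 and 73.8 CPM in the same libraries, Hoxa5 at 40.4 and 62.5 CPM, and Hoxa10 at 49.5 and 38.55 CPM, all within 2-fold. The Pbx3 to Hoxa9 count ratio was 0.549 in the KO-labelled library and 0.382 in the WT-labelled library. It changed by 1.44-fold (1.30 to 1.58), and the Meis1 to Hoxa9 ratio changed by 1.31-fold (1.17 to 1.46). After adjustment by the representative transcripts, the log2 change was 0.60 (0.46 to 0.74) for Pbx3 and 0.24 (0.08 to 0.4) for Meis1. These 2 changes were not computed with the longest transcripts, which brought the adjusted log2 ratio of Meis1 to -0.26. The genes past 2-fold were Hoxb4, with 49 counts in the KO-labelled library and 15 in the WT-labelled library, and Hoxa11, with 0 and 22.

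**Figure D5:**
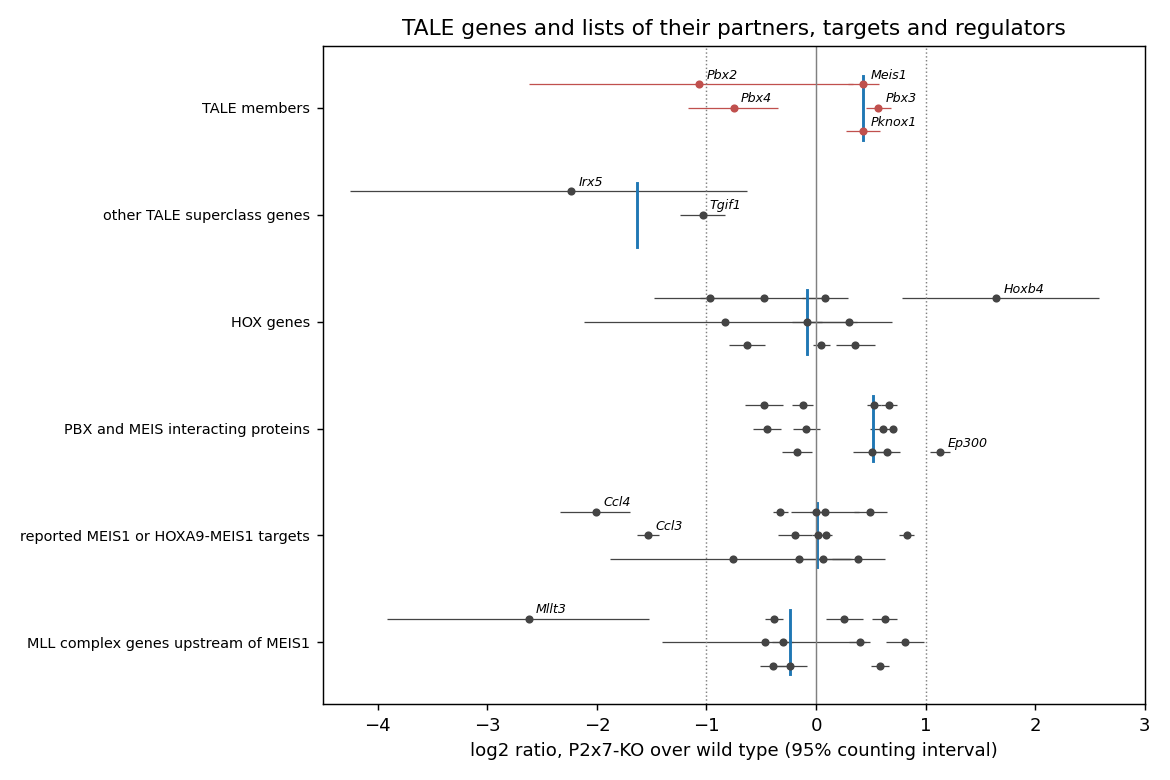
Log2 ratio of the KO-labelled library over the WT-labelled library with its 95% counting interval for each gene of at least 20 counts, by list; blue lines are list medians and dotted lines mark 2-fold. Hoxa11, at 0 counts in the KO-labelled library, has no finite ratio and is not drawn but counts in the median; the TALE genes lie within 2-fold except Pbx2, whose interval crosses equality.

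Of 12 genes listed for proteins that bind PBX or MEIS or act with them, 1 was at least 2-fold higher and 0 were lower. The list was made from general knowledge, and the binding of each protein was not checked. Their median log2 ratio was 0.52, and the interval excluded 1 upward for 7 and downward for 4. Ep300, a histone acetyltransferase gene, stood at 265.4 CPM in the KO-labelled library and 121.2 CPM in the WT-labelled library, and its log2 ratio of 1.13 was 0.61 once adjusted for length and GC content. The adjustment brought the list median to 0.05. Pbxip1, which encodes a PBX-binding protein that keeps PBX from DNA, stood at 142.9 CPM in the KO-labelled library and 155.5 CPM in the WT-labelled library (log2 ratio -0.12). Myh9, a non-muscle myosin gene, stood at 2370 and 1461 CPM in the same libraries (log2 ratio 0.70). The corepressor gene Ncor1, at 389.1 and 270.1 CPM in the same libraries, was also within 2-fold.

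Of 14 genes counted among 16 reported as targets of MEIS1 or of HOXA9 with MEIS1, 2 were at least 2-fold lower and 0 higher. The median log2 ratio was 0.01, against 0.005 over all genes. Flt3, the receptor tyrosine kinase gene, stood at 373.8 CPM in the KO-labelled library and 368.1 CPM in the WT-labelled library. Myb, the progenitor transcription factor gene, stood at 849.6 and 946.1 CPM in the same libraries, and Lmo2 at 445.7 and 419.3 CPM. Ccnd3, which encodes a D-type cyclin, stood at 338.1 CPM in the KO-labelled library and 337.4 CPM in the WT-labelled library. Mef2c stood at 406.5 CPM in the KO-labelled library and 229.0 CPM in the WT-labelled library, under 2-fold. The 2 genes that were lower before adjustment encode the chemokines CCL3 and CCL4. Ccl3 stood at 86.9 CPM in the KO-labelled library and 252.1 CPM in the WT-labelled library (log2 ratio -1.54), and Ccl4 at 8.25 and 33.2 CPM in the same libraries (log2 ratio -2.01). Trib2, a pseudokinase gene known as a MEIS1 target, had 0 counts in the KO-labelled library and 1 in the WT-labelled library.

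Of 11 genes of the MLL complex and its elongation partners, which maintain Meis1 transcription in MLL-rearranged leukaemia, 0 were at least 2-fold higher and 1 was lower. Over all genes counted 8.95% were lower by this rule. Their median log2 ratio, for the 11 genes, was -0.24, against 0.005 over all genes. Adjusted for length and GC content it was -0.08, against -0.01 over all genes. The unadjusted interval excluded 1 upward for 5 of them and downward for 5. Mllt3, which encodes an elongation cofactor, had 8 counts in the KO-labelled library and 47 in the WT-labelled library (log2 ratio -2.62). Aff1, a fusion partner of MLL, stood at 243.2 CPM in the KO-labelled library and 162.3 CPM in the WT-labelled library (log2 ratio 0.58). Cdk9, the elongation kinase gene, stood at 171.4 and 223.3 CPM in the same libraries, and Mllt10, which encodes a DOT1L cofactor, at 168.5 and 127.9 CPM. Kmt2a, which encodes MLL1, stood at 133.0 CPM in the KO-labelled library and 86.2 CPM in the WT-labelled library, and its log2 ratio of 0.62 was -0.01 once adjusted in the same way. Dot1l, the histone methyltransferase gene, stood at 132.2 and 163.1 CPM in the same libraries.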

How the data were processed

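RNA of 2 libraries was analysed, 1 for each genotype in the labels. The authors deposited raw counts per gene for both in 1 table (0 value columns left out). Per the submitters' processing notes, HISAT2 2.0.4 and mm10 were used. How reads were counted, with which annotation and strand setting, no source used here states. Counts were scaled with TMM in edgeR 4.0.16 (R 4.3.3). Ratios are the library labelled P2x7-KO over the library labelled wild type, with exact 95% counting intervals (Clopper-Pearson; for pairs of genes, the conditional exact interval of the odds ratio). Genes whose 2 counts summed to at least 20 were analysed, and called when at least 2-fold apart with an interval that excludes 1. Symbols were matched to GENCODE M21 for 33912 of 46095 genes, and 92.3% of genes counted had a length. The representative transcript is the APPRIS principal one. Length and GC trends were loess curves (span 0.5), whose own error is not in the intervals. For the longest-transcript setting the trend was refitted on the longest transcript of every gene. Scripts were tested on simulated data. Alternatives were total count, DESeq2 1.42.0 and upper quartile scaling, TMM without ribosomal and mitochondrial genes, thinning, count minimums, folds, intervals and transcript lengths. All 8 members and the check genes are named. Of each pathway list, but not of the cell type marker lists, genes past the rule are named, with up to 4 others of highest mean count, of which 1 is not reported here. Mef2c, Kmt2a and genes named for counts at or near 0 were named after their values were seen. Members, lists and rules were chosen with earlier results of these data known. P-values and replicate tests could not be had, and reads are not independent molecules.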

Additional observations from a re-analysis of the deposited data

How the results depend on the processing

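All 25 log2 ratios of the 5 counted members under the 5 scaling and thinning alternatives stayed inside the counting interval of the main value. Adjustment for length and GC content moved Meis1 to 0.16 and Pknox1 to 0.18, and length alone moved Pknox1 to 0.16. With the longest transcript of every gene, added after the data were seen, Meis1 turned to -0.26, Pbx3 came to 0.33 and Pbx4 to -0.33. Adjustment for length and GC content left 0 members lower by their interval, against 1 in the main analysis, and a 1.5-fold rule called 1 member, Pbx4, lower. Of 100 list counts recomputed, 84 stayed within 1.5 times. The other TALE genes lower by 2-fold, 2 in the main analysis, were 1 under total count and DESeq2 scaling, with a minimum of 100 counts, and adjusted for length or for length and GC content of the representative transcript, but 2 with the longest transcript. HOX genes lower, 1 in the main analysis, were 2 with upper quartile scaling or no minimum and 0 with a minimum of 100, which also left 0 higher. They were 0 in each of the 3 adjustments too, where Hoxa11, at 0 in the library labelled P2x7-KO, has no finite value and drops out. Of the PBX and MEIS interactors 0 were higher after each adjustment, and 0 genes of the MLL complex were lower with a minimum of 100 counts. The other causes were not tested, apart from the minimums, which change the genes counted. Shares per kilobase of all exons or of the longest transcript lowered Meis1 to between 14.1% and 18.9%. Counts near 0 leave Meis2, Meis3 and Pknox2 without a ratio and Pbx2 with a wide interval, and what limits Pbx2 was not tested. No paired analysis was possible because each genotype has 1 library, and for the same reason no replicate could be left out.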
